A study of Mus musculus with 20 samples.

Results

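Collagens, laminins and the enzymes that process collagen were followed as 1 set of 47 genes in a murine B16 Bcr-Abl+ melanoma line carrying forms of p65/RelA, the transactivating NF-kB subunit. The set was made by gene name, as the fibrillar, basement membrane and other collagens (23 genes), the laminin chains (8), the proteins that link or bind them (5), the collagen-processing proteins of the endoplasmic reticulum (8) and the lysyl oxidases (3). Probes were assigned through their accession. Of the 47 genes, 33 had a probe that the scanner software put well above background on 3 or more of the 20 arrays and are called measured here, among 18738 measured genes in all. Of these 33, 26 were above background on every array, Fbln1 was above background wherever it had a value, Col1a1 and Col4a2 were below it on single arrays, and Col27a1, Col4a1, Fkbp10 and Lox were below it on every array of 1 group or more. The other 14 had no usable signal.

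The cells had been transfected with plasmids for wild-type p65 (WT, 3 arrays), the non-cleavable D361E form (3 arrays), residues 1-361 (N-fragment, 3 arrays), residues 362-549 (C-fragment, 3 arrays), both fragments together (N+C, 5 arrays) or with void plasmid, as which the samples titled "Blanck" were read (3 arrays). All groups share the B16 Bcr-Abl+ background, so void cells also carry Bcr-Abl, and the labels give the strain as C3H eOuJ. Total RNA was hybridised to 1-colour Agilent arrays. The labels do not say how the replicates were made, whether clones were picked or how long after transfection RNA was taken, so the p-values reflect the spread among these arrays alone, which may be technical.

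Collagens are trimers of chains that are hydroxylated on prolines and lysines and folded by chaperones in the endoplasmic reticulum before secretion, and are then cross-linked outside the cell by lysyl oxidases. Fibrillar collagens give tissues their tensile strength, whereas type IV collagen and laminin form separate networks that nidogen and perlecan tie together into the basement membrane. Melanoma cells cross this membrane when they invade, and they also make some of its components themselves.

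All 9 melanocyte markers were above background on all 20 arrays. No haematopoietic or B-lymphoid marker of 8 was measured. Of 9 fibroblast markers 5 were measured and Pdgfrb, Dcn, Lum and Dpt were above background on no array. Pdpn was above it on every array, with a mean of 2.78 on the log2 scale relative to the array's 75th percentile. Pdgfra (mean -5.09) was above it on 16 arrays, including every WT, D361E, N-fragment and void array and no C-fragment array, and Fap (mean -5.58) on 9, all of them WT, D361E and void arrays. The summed level of the measured markers, mostly that of Pdpn, in percent of the array's 75th percentile signal, was 1154 to 1167 with WT, 1003 to 1279 with D361E, 417 to 437 with the N-fragment, 951 to 1042 with the C-fragment and 172 to 590 with N+C, against 1279 to 1294 with void. Of 7 macrophage markers 4 were measured, and Csf1r (mean -0.64), Cd68 (-1.88) and Itgam (0.87) were above background on all 20 arrays. Of 7 endothelial markers 3 were measured, with Kdr (mean 0.58) and Pecam1 (-4.62) above it on all 20 arrays and Vwf on 17. Of 7 epithelial markers 2 were measured, Krt14 above it on 16 arrays and Krt5 on 9. The part of all these markers in the results below was not tested. In bulk RNA, fewer cells of a type and less RNA per cell cannot be told apart. The 5 N+C arrays stood apart in 2 sets, arrays 1 to 3 and arrays 4 and 5. Over all genes the median size of the log2 difference was 0.11 to 0.13 within the sets and 0.25 to 0.33 between them, where pairs of arrays in the other groups gave 0.081 to 0.25. Arrays 1 and 4, of different sets, shared a slide. Results with N+C are also given for the sets where the sets differ.

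The stretch before the annotated start is shown for Lamb1, Col7a1 and Col1a2, the 3 members with the widest range of group means among those above background on every array, each with a matched promoter entry. The sequences are the 250 bases upstream of the start in the RefSeq annotation of GRCm38.p6, all on the plus strand, at chr12:31265043-31265292 for Lamb1, chr9:108953336-108953585 for Col7a1 and chr6:4505368-4505617 for Col1a2. Capitals mark GGGCGG, the core of the Sp1 site, or CCAAT, the NF-Y box, or their reverse complements.
Lamb1: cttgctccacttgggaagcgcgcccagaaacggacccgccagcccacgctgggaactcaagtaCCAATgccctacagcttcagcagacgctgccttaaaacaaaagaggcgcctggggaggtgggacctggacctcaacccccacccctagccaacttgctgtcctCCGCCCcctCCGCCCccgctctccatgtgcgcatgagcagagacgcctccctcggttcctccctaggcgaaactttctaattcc
Col7a1: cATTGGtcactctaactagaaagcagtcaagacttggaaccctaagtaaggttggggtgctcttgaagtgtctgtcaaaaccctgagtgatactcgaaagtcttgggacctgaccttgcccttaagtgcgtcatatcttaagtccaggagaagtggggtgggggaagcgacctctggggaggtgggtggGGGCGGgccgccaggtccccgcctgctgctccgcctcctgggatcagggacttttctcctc
Col1a2: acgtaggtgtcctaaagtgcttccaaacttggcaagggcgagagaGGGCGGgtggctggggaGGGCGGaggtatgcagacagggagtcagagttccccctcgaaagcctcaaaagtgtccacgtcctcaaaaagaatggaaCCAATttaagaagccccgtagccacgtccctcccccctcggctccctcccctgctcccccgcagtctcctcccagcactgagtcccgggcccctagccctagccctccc
Each of the 3 stretches held both motifs. Motifs were searched in the 250 bases before the start only, in all 32851 windows of the promoter annotation. Of these windows, 32.742% held GGGCGG, 33.85% held CCAAT and 12.368% held TATAAA on either strand. Of the 32 members with an entry, 23 held GGGCGG, 13 held CCAAT and 3 held TATAAA. The NF-kB consensus was found in 3.899% of all windows and at 3 members, Col27a1, Lamb3 and Serpinh1. It was not found in the 3 stretches shown. A match is a description of the letters only.

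Levels are log2 of the background-subtracted signal minus the array's 75th percentile, so that 0 is that percentile, and a gene was called when its adjusted p (limma, Benjamini-Hochberg over all 18738 genes) was under 0.05. With the N-fragment 9 of the 33 measured members were higher than with void and 5 were lower, where 13.2% of all genes were called higher and 17.9% lower. With N+C 8 were higher and 5 lower (11.8% and 12.8% of all genes). With D361E 2 were higher and 6 lower (6.04% and 7.44%), with the C-fragment 0 were higher and 8 lower (4.88% and 8.25%), and with WT 1 was higher and 5 were lower (3.22% and 6.16%). The members' median log2 difference from void was -0.13 with WT, -0.06 with D361E, 0.10 with the N-fragment, -0.23 with the C-fragment and 0.11 with N+C, where all genes had -0.03, -0.04, -0.06, -0.02 and -0.03 in the same order. In all 20 members were called against void at least once, 7 of them only higher, 6 only lower and 7 in both directions with different constructs. The share of all genes called at least once was not counted, so this number cannot be read as high or low for the set. On unscaled signals, where the median difference of all genes from void was 0.12 to 0.37, the members called higher and lower were 9 and 3 with WT (39.6% and 1.35% of all genes) and 3 and 2 with D361E (9.88% and 2.96%). They were 15 and 4 with the N-fragment (33.7% and 5.98%), 3 and 7 with the C-fragment (15.3% and 2.74%) and 14 and 4 with N+C (24.9% and 4.75%). The comparisons share the void arrays. Because the fit pools the spread of all groups, the spread between the N+C sets also enters the other comparisons, and without the 5 N+C arrays 13 members were called with the C-fragment, 1 higher and 12 lower, where 7.54% of all genes were called higher and 12.5% lower.

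**Figure D1:**
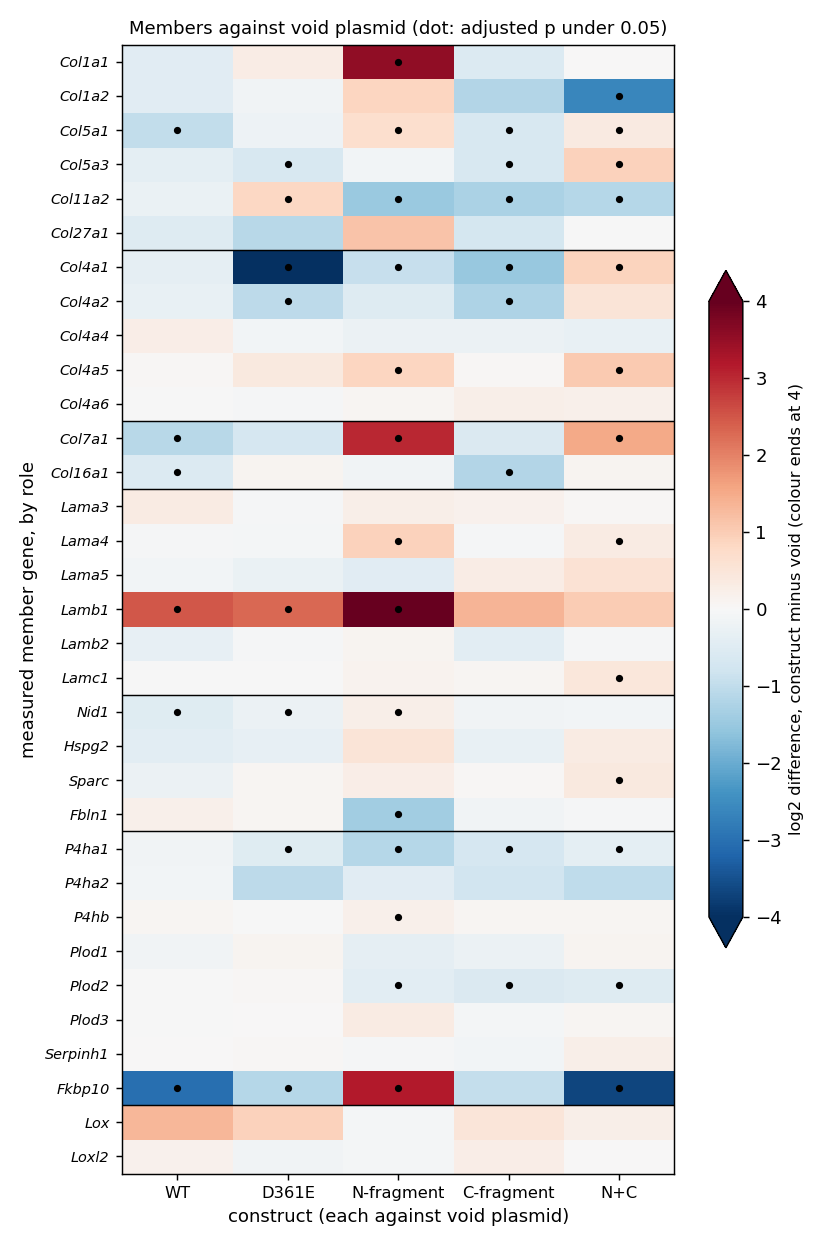
Log2 difference of each measured member from void plasmid (rows, grouped by role with lines between roles) with each construct (columns). Red is higher and blue lower than void, colour ends at 4, and a dot marks an adjusted p under 0.05. Cells that rest on a group with no array above background are no measured differences, namely Col4a1 with D361E, Fkbp10 with WT and N+C, Col27a1 with D361E and the C-fragment, and all cells of Lox. Lamb1, Col1a1, Col7a1 and Fkbp10 are the 4 strongest reds in the N-fragment column.

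Laminin chains assemble as trimers of an alpha, a beta and a gamma chain. Lamb1, which encodes the beta-1 chain, was higher than with void with the N-fragment, with WT and with D361E. Its level was -0.93, -1.01 and -0.88 on the WT arrays, -1.07, -1.11 and -1.22 with D361E and 2.47, 2.19 and 2.16 with the N-fragment. It was -1.88, -2.11 and -2.18 with the C-fragment and -2.96, -3.35, -3.49, -1.16 and -1.17 on the 5 N+C arrays, against -3.38, -3.32 and -3.57 with void. The N-fragment arrays lay above all others, WT and D361E arrays lay close together, and only N+C arrays overlapped the void range. Below, a difference is that of the group means on the log2 scale, construct minus void, ± its standard error from the fit. For Lamb1 it was 5.70 ± 0.49, adjusted p = 2.91e-07 with the N-fragment, which is 51.9-fold. With normexp background correction and quantile normalization, called normexp below, it was 4.14 and called. With WT it was 2.49 ± 0.49, adjusted p = 0.00483, and with D361E it was 2.29 ± 0.49, adjusted p = 0.00512. The C-fragment difference was not called (1.37 ± 0.49, adjusted p = 0.0814) but passed without the N+C arrays, with the same difference and an adjusted p of 4.67e-06. The N+C difference of 1.00 was not called. It was 0.16 over arrays 1 to 3 and 2.26 over arrays 4 and 5, and only the second was called. Within the slide that held both groups, the N-fragment array exceeded the void array by 6.04.

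**Figure D2:**
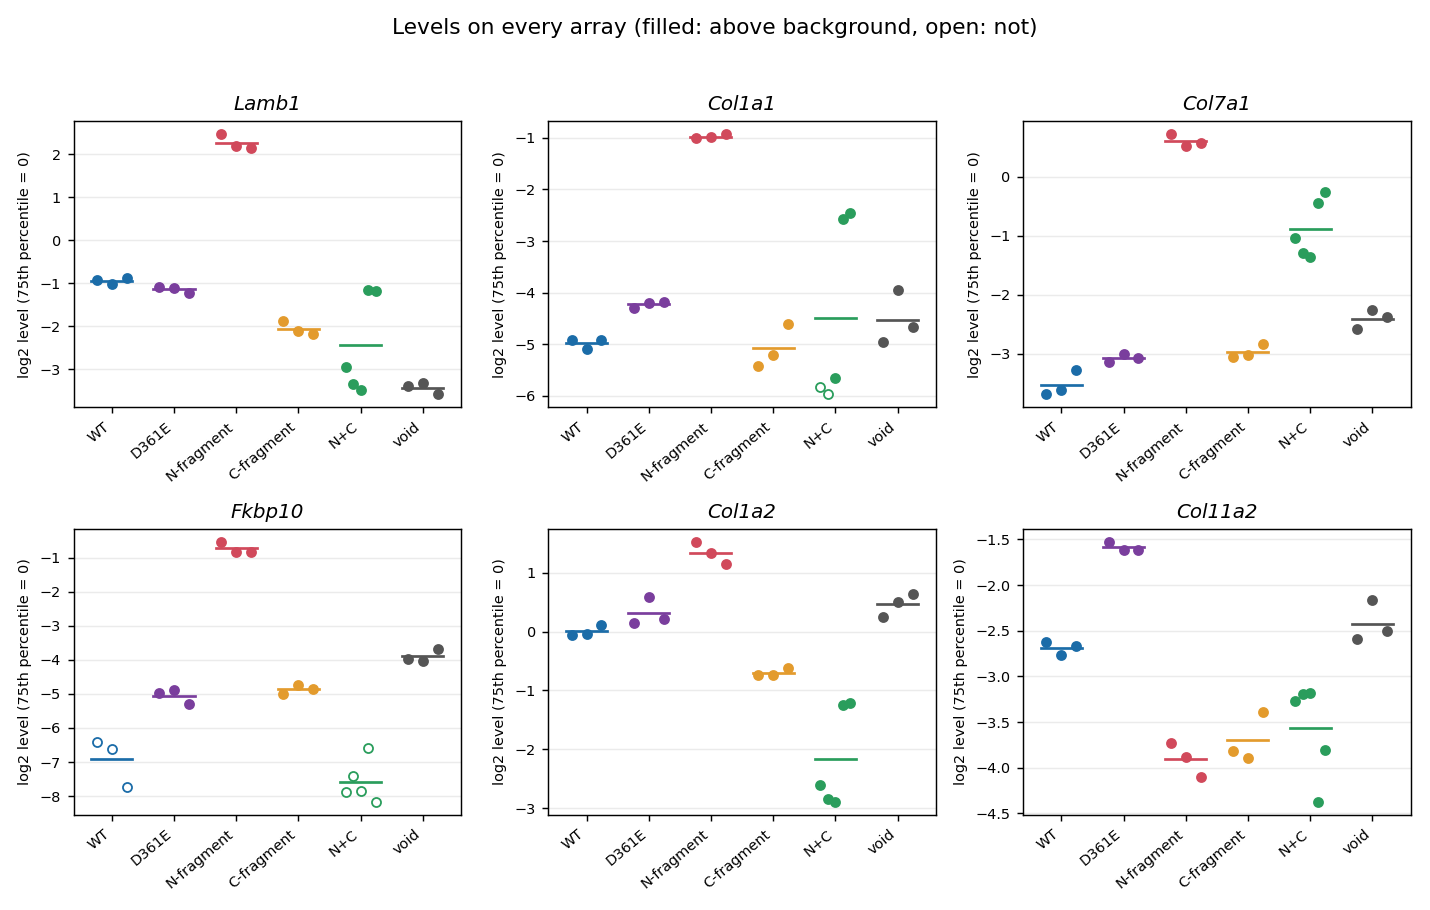
Level (log2 signal, 75th percentile of the array at 0) of 6 members on each of the 20 arrays, by group. Points are arrays, filled where above background and open where not, and bars are group means. In Lamb1, Col1a1, Col7a1 and Fkbp10 the 3 N-fragment arrays lie above every other array, and in Lamb1, Col1a1 and Col1a2 the N+C arrays form 2 clumps.

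Among the other laminin genes, Lama4, the alpha-4 chain of vessel and nerve basement membranes, stood at 1.00, 1.23 and 1.27 with WT, 1.18, 1.13 and 1.11 with D361E, 2.21, 2.09 and 2.11 with the N-fragment, 1.26, 1.12 and 1.07 with the C-fragment and 1.66, 1.55, 1.63, 1.32 and 1.49 with N+C, against 1.18, 1.21 and 1.23 with void. The N-fragment and N+C arrays lay above the void range, and the N-fragment arrays highest. The differences were 0.93 ± 0.09, adjusted p = 7.1e-07 with the N-fragment and 0.32 ± 0.08, adjusted p = 0.00635 with N+C. The second was not called over arrays 4 and 5 alone (0.20). Lamc1, the gamma-1 chain that most laminins share, was higher with N+C only (0.45 ± 0.11, adjusted p = 0.00603). Lama5, an alpha chain of adult basement membranes, stood at -0.78, -0.69 and -0.62 with WT, -0.92, -0.63 and -1.01 with D361E, -0.88, -1.13 and -1.07 with the N-fragment and -0.23, -0.23 and -0.33 with the C-fragment. It was -0.47, -0.67, -0.59, 0.73 and 1.05 on the N+C arrays, against -0.71, -0.54 and -0.48 with void. The last 2 N+C arrays lay above all others, and no Lama5 difference was called over the 5 arrays. Lama3 and Lamb2 were not called against void, with differences from -0.43 (Lamb2, C-fragment) to 0.34 (Lama3, WT).

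Type I collagen, the main fibril of skin and bone, is made of the chains of Col1a1 and Col1a2, and the values of both genes are given in turn. Col1a1 stood at -4.91, -5.10 and -4.93 with WT, -4.29, -4.20 and -4.17 with D361E and -1.01, -0.98 and -0.93 with the N-fragment. It was -5.42, -5.21 and -4.61 with the C-fragment and -5.83, -5.97, -5.66, -2.58 and -2.46 with N+C, where arrays 1 and 2 were not above background, against -4.96, -3.95 and -4.67 with void. The N-fragment arrays stood above all others, and N+C arrays lay on both sides of the void range. Col1a1 was 11.8-fold higher with the N-fragment (3.55 ± 0.78, adjusted p = 0.00237), and the difference was 1.97 with normexp, also called. No other construct was called, and the N+C difference was -1.29 over arrays 1 to 3 and 2.01 over arrays 4 and 5, each called.

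Col1a2 stood at -0.05, -0.04 and 0.11 with WT, 0.14, 0.59 and 0.22 with D361E and 1.52, 1.33 and 1.14 with the N-fragment. Its levels were -0.73, -0.74 and -0.62 with the C-fragment and -2.61, -2.84, -2.89, -1.24 and -1.22 with N+C, against 0.26, 0.50 and 0.63 with void. All N+C arrays lay below every other array, those of the C-fragment lay next, and the N-fragment arrays lay highest. Col1a2 was lower with N+C (-2.62 ± 0.33, adjusted p = 3.36e-05), and both sets were lower (-3.24 and -1.69). The N-fragment (0.87 ± 0.37, adjusted p = 0.0928) and C-fragment (-1.16 ± 0.37, adjusted p = 0.0523) differences were not called, and both were when the N+C arrays were left out (adjusted p = 0.000306 and 0.000118).

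Col11a2, a chain of the type XI collagen of cartilage fibrils, stood at -2.62, -2.77 and -2.67 with WT and -1.53, -1.62 and -1.61 with D361E. It was -3.72, -3.89 and -4.10 with the N-fragment, -3.82, -3.89 and -3.39 with the C-fragment and -3.27, -3.19, -3.18, -4.37 and -3.80 with N+C, against -2.59, -2.17 and -2.50 with void. The D361E arrays lay above all others, and the arrays of either fragment or both lay below the void range. Col11a2 differed from void by -1.48 ± 0.25, adjusted p = 0.000266 with the N-fragment, -1.28 ± 0.25, adjusted p = 0.00319 with the C-fragment and -1.14 ± 0.22, adjusted p = 0.00136 with N+C. The D361E rise (0.83 ± 0.25, adjusted p = 0.0358) lost its call when any of 5 single arrays, void 1, void 3 or any D361E array, was left out (0.75 to 0.85). Of all 18 refits 7 lost the call, and the rise ran from 0.54 to 1.01. The type V chains, which set fibril diameter, moved by less. Col5a1 was lower with WT (-0.97) and the C-fragment (-0.65; -0.22 and not called with normexp) and higher with the N-fragment (0.67) and N+C (0.37, 0.27 and not called without void 1). Col5a3 was lower with D361E (-0.65; -0.50 and not called on unscaled signals) and the C-fragment (-0.63; -0.60 to -0.58 and not called without void 2, void 3 or C-fragment 3), and higher with N+C (0.91). Col27a1, above background on 6 of 20 arrays, was not called.

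Type IV collagen forms the sheet of the basement membrane, and its 6 genes lie as pairs with neighbouring starts. Col4a1 and Col4a2, whose annotated starts lie 21 bases apart on opposite strands, encode the chains found in nearly all basement membranes. Col4a1 stood at -3.17, -3.10 and -2.93 with WT and at -7.95, -8.23 and -8.10 with D361E, where no array was above background. It was -3.46, -3.78 and -3.68 with the N-fragment, -4.29, -4.07 and -4.35 with the C-fragment and -1.68, -1.77, -1.65, -1.95 and -2.07 with N+C, against -2.89, -2.63 and -2.60 with void. No group overlapped void, and the N+C arrays were the highest. With D361E Col4a1 was at least 9.42-fold lower than with void, the group means being -8.10 with D361E and -2.71 with void (adjusted p = 3.9e-13). With normexp the difference was -1.32 and called, so the bound holds for the processed signals only. Such a bound compares the brighter group with the dimmest signals still above background on the arrays of the dimmer group. It was lower with the C-fragment (-1.53 ± 0.13, adjusted p = 2.04e-06) and the N-fragment (-0.93 ± 0.13, adjusted p = 3.76e-05) and higher with N+C (0.88 ± 0.11, adjusted p = 3.58e-05). The lower WT mean was not called (-0.36).

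Col4a2 stood at -4.35, -4.21 and -4.40 with WT, -5.01, -4.84 and -5.38 with D361E and -4.22, -4.57 and -4.84 with the N-fragment. It was -5.31, -5.03 and -5.39 with the C-fragment, array 3 of which was below background, and -3.84, -3.96, -3.80, -2.99 and -2.93 with N+C, against -4.36, -3.68 and -4.04 with void. The D361E and C-fragment arrays lay below the void range, and N+C arrays 4 and 5 above it. With the C-fragment Col4a2 fell (-1.22 ± 0.27, adjusted p = 0.00729), a call lost with normexp (-0.30, adjusted p = 0.131). With D361E it fell as well (-1.05 ± 0.27, adjusted p = 0.0159), a call lost with normexp (-0.26), without void 2 (-0.88) or without D361E 3 (-0.90). Of all 17 refits 6 lost this call. The D361E arrays of Col4a2 stayed above background where those of Col4a1 did not, and each gene had 1 probe.

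Col4a5, a chain of specialised membranes such as that of the kidney filter, stood at -0.91, -1.03 and -0.89 with WT, -0.63, -0.58 and -0.60 with D361E and -0.18, -0.12 and -0.08 with the N-fragment. It was -0.96, -0.95 and -0.88 with the C-fragment and 0.42, 0.21, 0.22, -0.34 and -0.25 with N+C, against -0.95, -0.95 and -1.05 with void. D361E, N-fragment and N+C arrays lay above all void arrays, and WT and C-fragment arrays lay around them. The rises were 1.03 ± 0.13, adjusted p = 2.93e-05 with N+C and 0.86 ± 0.15, adjusted p = 0.000288 with the N-fragment. Col4a6, its neighbour, was not called, with group means from -4.06 (D361E) to -3.79 (C-fragment). Col4a4 was not called either, but with N+C it was -1.10 over arrays 1 to 3 and 0.88 over arrays 4 and 5. A second, dim Col4a4 probe was above background on 3 arrays, with a mean of -4.79 in the N-fragment group, against -6.80 in void. Its partner Col4a3 was not measured.

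**Figure D3:**
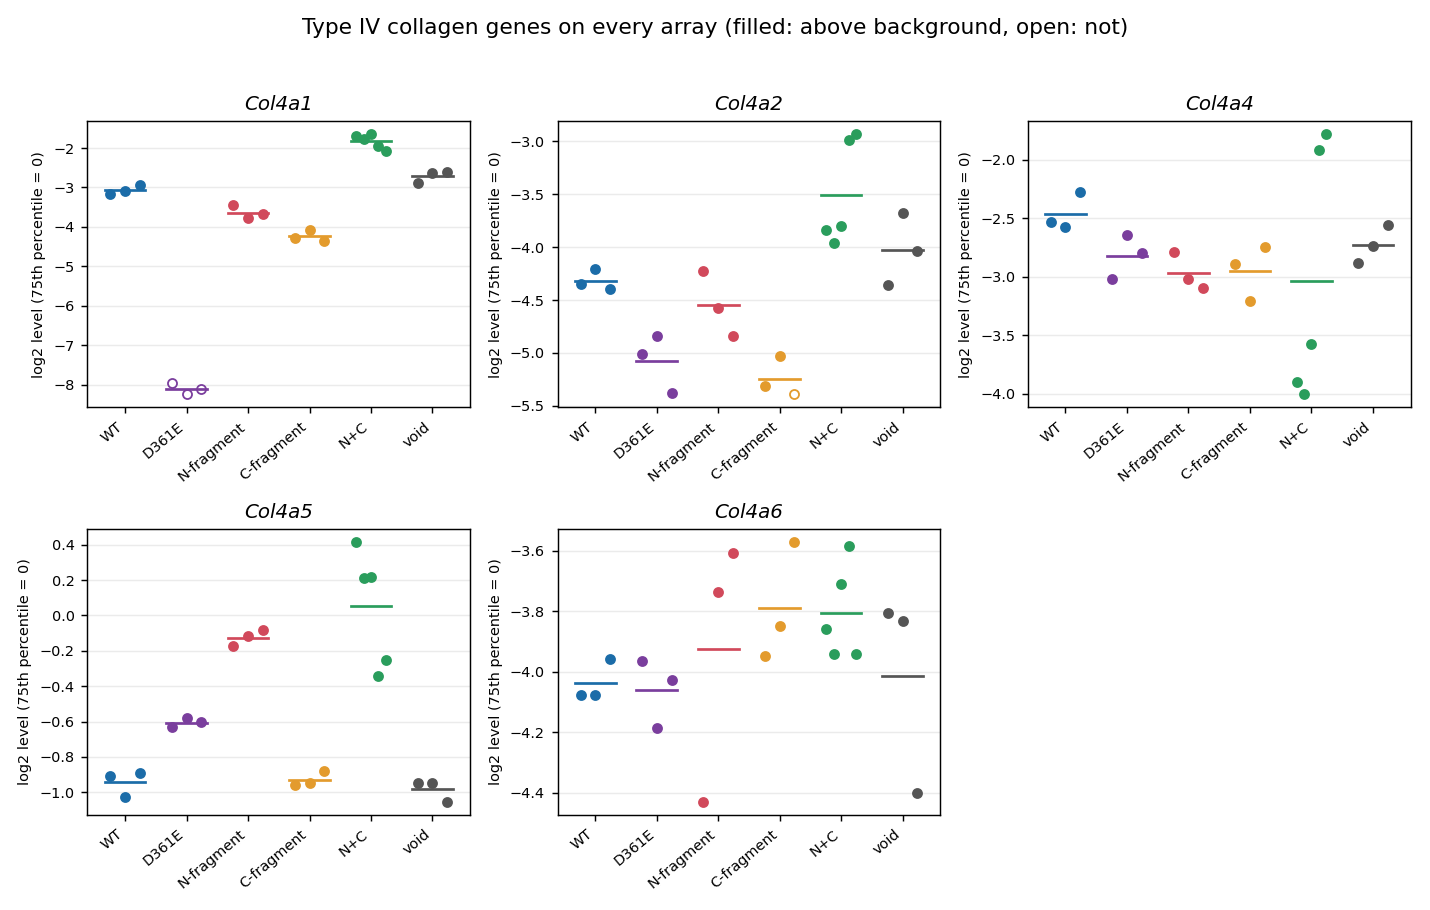
Levels (log2 signal, 75th percentile at 0) of the 5 measured type IV collagen genes on each array, with bars at group means, filled points above background and open points not. The 3 D361E arrays of Col4a1 lie near -8 and are open, while those of Col4a2 are filled, and the vertical scale differs between panels.

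Col7a1 encodes the collagen of the anchoring fibrils that fasten the epidermal basement membrane to the dermis. Its level was -3.68, -3.62 and -3.28 with WT, -3.15, -3.00 and -3.07 with D361E and 0.72, 0.52 and 0.57 with the N-fragment. It was -3.05, -3.03 and -2.84 with the C-fragment and -1.05, -1.29, -1.36, -0.45 and -0.26 with N+C, against -2.58, -2.26 and -2.37 with void. The N-fragment arrays were highest, then N+C, and WT, D361E and C-fragment arrays lay below the void range. Col7a1 was 8.04-fold higher with the N-fragment (3.01 ± 0.23, adjusted p = 7.33e-08), and the difference was 2.27 with normexp. It was also higher with N+C (1.52 ± 0.21, adjusted p = 5.8e-05), with 1.17 over arrays 1 to 3 and 2.05 over arrays 4 and 5. With WT it was lower (-1.12 ± 0.23, adjusted p = 0.00617). The D361E (-0.67) and C-fragment (-0.57) differences were not called, and were without the N+C arrays (adjusted p = 0.00155 and 0.00487).

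Col16a1, which binds the surface of other fibrils, stood at 1.11, 1.02 and 1.09 with WT, 1.61, 1.84 and 1.77 with D361E and 1.64, 1.52 and 1.30 with the N-fragment. It was 0.46, 0.40 and 0.52 with the C-fragment and 1.53, 1.48, 1.49, 2.03 and 2.17 with N+C, against 1.60, 1.62 and 1.65 with void. The C-fragment arrays were the lowest and the WT arrays next, and both lay clear of void. Col16a1 was lower with the C-fragment (-1.16 ± 0.16, adjusted p = 0.000174), and 2 further probes of the gene were also lowest in that group. The WT difference (-0.55 ± 0.16, adjusted p = 0.0398) lost its call without any 1 of the 6 WT and void arrays (-0.57 to -0.52). Of all 18 refits 11 lost the call, and the WT difference ran from -0.69 to -0.15.

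Among the linkers and collagen-binding proteins the widest range of group means was that of Fbln1, the elastic fibre and basement membrane protein fibulin-1. Fbln1 stood at 2.80, 2.71 and 2.86 with WT, 2.45, 2.93 and 2.65 with D361E and 1.25 and 1.12 with the N-fragment, whose array 1 had no value because its spot was flagged. It was 2.51, 2.44 and 2.38 with the C-fragment and 2.51, 2.30, 2.49, 2.67 and 2.76 with N+C, against 2.28, 2.65 and 2.83 with void. The 2 N-fragment arrays lay below all others, and the remaining groups overlapped void. Over these 2 arrays Fbln1 was lower with the N-fragment (-1.40 ± 0.16, adjusted p = 1.02e-05), and 2 further probes had their lowest mean in that group (-2.21 and 0.91, against -1.06 and 2.08 with void).

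Nid1, nidogen-1, stood at -0.43, -0.39 and -0.42 with WT, -0.12, -0.28 and -0.15 with D361E and 0.18, 0.31 and 0.41 with the N-fragment. It was -0.09, -0.15 and -0.03 with the C-fragment and 0.01, 0.04, 0.00, -0.11 and -0.13 with N+C, against 0.22, 0.02 and -0.06 with void. The WT and D361E arrays lay below the void range, and the N-fragment arrays overlapped it. Nid1 was lower with WT (-0.47 ± 0.08, adjusted p = 0.00126), a call lost on unscaled signals (-0.07, adjusted p = 0.677). The smaller D361E (-0.25) and N-fragment (0.24) calls were lost without single arrays: void 1, void 2 or any D361E array for D361E (-0.28 to -0.17), and void 2, void 3, N-fragment 2 or N-fragment 3 for the N-fragment (0.18 to 0.23). Over all 18 refits the D361E difference ran from -0.30 to -0.07 with 11 losses. The N-fragment difference ran from 0.18 to 0.57 with 7 losses.

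Hspg2, perlecan, stood at 0.43, 0.56 and 0.78 with WT, 0.64, 0.92 and 0.54 with D361E and 1.88, 1.32 and 1.41 with the N-fragment. Its levels were 0.84, 0.65 and 0.67 with the C-fragment and 1.82, 1.45, 1.72, 0.77 and 1.05 with N+C, against 0.79, 1.06 and 1.22 with void. The N-fragment arrays lay above void and the WT arrays below it, and no Hspg2 difference from void was called. Sparc, a secreted protein that binds collagen, was higher with N+C (0.38 ± 0.09, adjusted p = 0.00492). Its 3 probes disagreed. With WT the probe used averaged 7.55, against 7.78 with void, while the others averaged 2.46 and -3.57 with WT, against 1.92 and -3.81 with void. The second probe also averaged 3.35 with the N-fragment and 2.94 with the C-fragment, both above its 1.92 with void. With the mean of the 3 probes the N+C difference was 0.61 and not called.

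Of the 8 processing proteins of the endoplasmic reticulum all were measured, and Fkbp10, a prolyl isomerase that assists procollagen folding and whose loss in people causes brittle bones, changed most. Its level was -6.40, -6.62 and -7.74 with WT, none above background, -4.98, -4.89 and -5.29 with D361E and -0.54, -0.83 and -0.83 with the N-fragment. It was -4.99, -4.74 and -4.87 with the C-fragment and -7.87, -7.41, -7.85, -6.60 and -8.16 with N+C, again none above background, against -3.98, -4.04 and -3.68 with void. The N-fragment arrays lay above all others, and every other construct lay below the void range. Fkbp10 was 8.97-fold higher with the N-fragment (3.17 ± 0.35, adjusted p = 4.13e-06), and the difference was 1.81 with normexp. The bounds that follow hold for the processed signals only, since normexp gave -0.56 with WT and -0.66 with N+C, both called. With WT the level was lower by 3.94-fold or more (adjusted p = 4.76e-05), and with N+C by 3.93-fold or more (adjusted p = 5.22e-07), the means being -6.92 with WT and -7.58 with N+C, against -3.90 with void. The D361E difference (-1.15 ± 0.35, adjusted p = 0.038) lost its call without any 1 of the 6 D361E and void arrays (-1.23 to -1.04). Of all 17 refits 10 lost the call, and the D361E difference ran from -1.23 to -0.31. The C-fragment difference (-0.97 ± 0.35, adjusted p = 0.0814) was not called.

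P4ha1, a catalytic subunit of the prolyl hydroxylase that stabilises the triple helix, stood at -0.72, -1.09 and -0.98 with WT, -1.29, -1.19 and -1.31 with D361E and -1.99, -1.87 and -1.92 with the N-fragment. It was -1.62, -1.43 and -1.37 with the C-fragment and -1.11, -1.34, -1.30, -1.22 and -0.98 with N+C, against -0.80, -0.74 and -0.84 with void. All arrays but WT 1 lay below the void range, the N-fragment arrays lowest. P4ha1 fell with the N-fragment (-1.13 ± 0.10, adjusted p = 4.78e-07), and by less with the C-fragment (-0.68), D361E (-0.47) and N+C (-0.40). The N+C and D361E calls were lost on unscaled signals (-0.18 and -0.32). The WT difference was -0.14 and not called.

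P4ha2, the second catalytic subunit, stood at 0.97, 0.79 and 0.91 with WT, 0.05, -0.09 and -0.13 with D361E and 0.45, 0.60 and 0.63 with the N-fragment. It was 0.12, 0.26 and 0.35 with the C-fragment and -0.78, -0.79, -0.84, 1.17 and 1.16 with N+C, against 1.07, 0.97 and 0.96 with void. N+C arrays 1 to 3 were the lowest and arrays 4 and 5 the highest of all. With this spread in the fit no P4ha2 difference was called. Without the N+C arrays the gene was lower with D361E (-1.06, adjusted p = 3.02e-06), the C-fragment (-0.76) and the N-fragment (-0.44).

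Plod2, the lysyl hydroxylase of the collagen ends, was lower with the C-fragment (-0.58 ± 0.10, adjusted p = 0.00173), N+C (-0.50 ± 0.09, adjusted p = 0.000866) and the N-fragment (-0.41 ± 0.10, adjusted p = 0.00592). Scaled on the array median, none of these 3 was called (-0.43, -0.29 and -0.19). P4hb, which completes the prolyl hydroxylase, was higher by 0.19 with the N-fragment, a call lost without void 1, void 2, N-fragment 1 or N-fragment 2 (0.16 to 0.20). The lysyl hydroxylases Plod1 and Plod3 and the procollagen chaperone Serpinh1 were not called against void. Serpinh1 differences ran from -0.10 with the C-fragment to 0.24 with N+C.

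**Figure D4:**
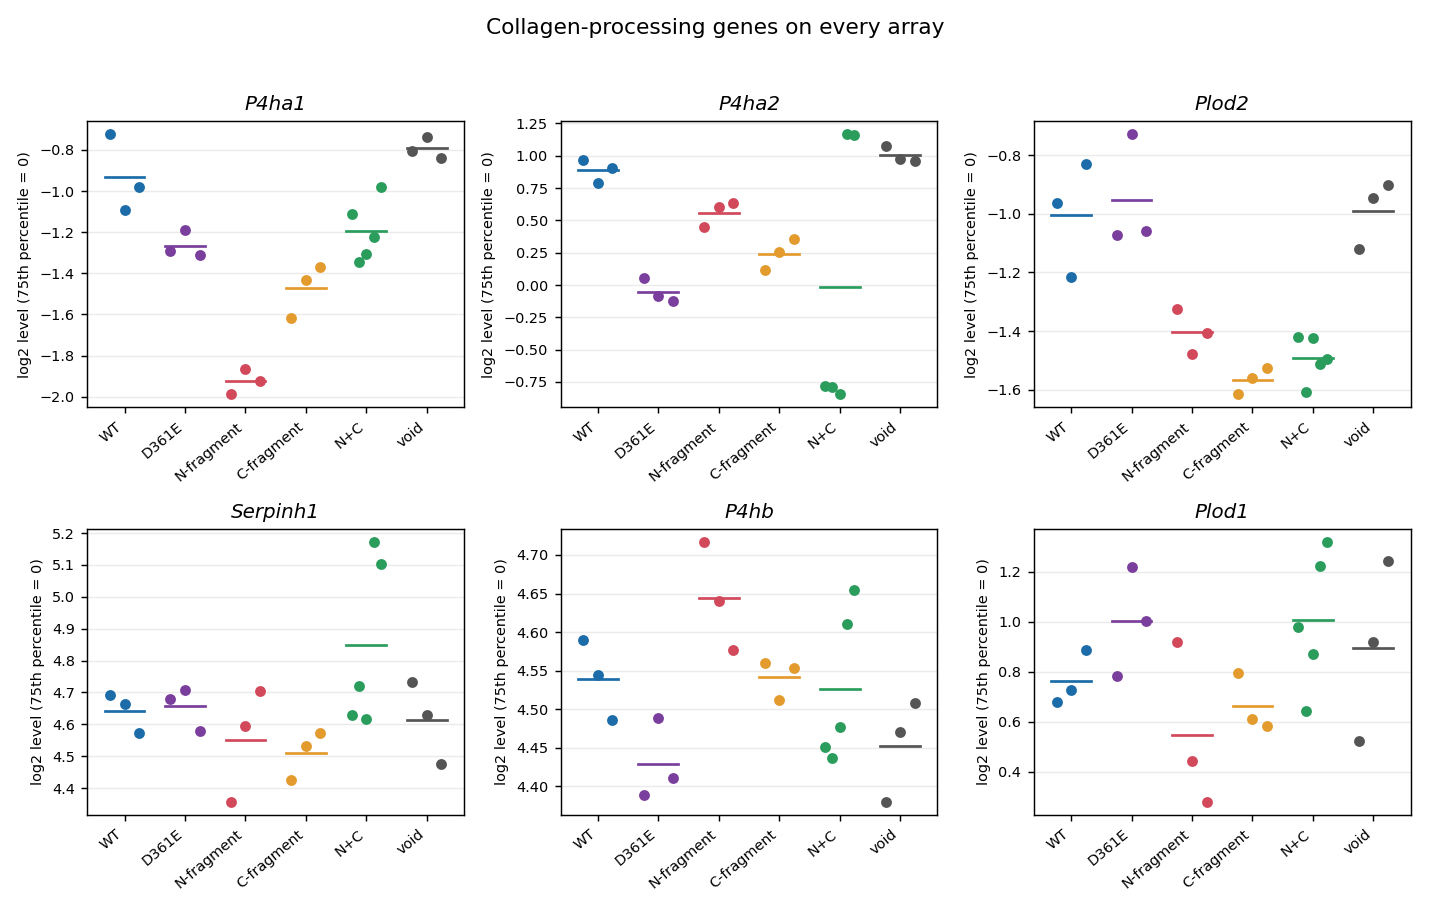
Levels (log2 signal, 75th percentile at 0) of 6 collagen-processing genes on each array, with bars at group means, all points above background. P4ha1 and Plod2 lie below void with both fragments and with N+C, and P4ha2 splits N+C arrays 1 to 3 from arrays 4 and 5. The vertical scale differs between panels.

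The lysyl oxidases showed no called difference. Lox, which starts the cross-linking of collagen and elastin, was above background on 2 WT arrays, 1 D361E array and 1 N+C array and on none of the other groups. Loxl2, which also cross-links type IV collagen, stood at -2.67, -2.58 and -2.59 with WT, -2.67, -3.17 and -2.90 with D361E and -3.23, -2.69 and -2.61 with the N-fragment. It was -2.52, -2.53 and -2.49 with the C-fragment and -2.81, -2.54, -2.49, -2.78 and -3.14 with N+C, against -2.42, -2.64 and -3.27 with void. All groups overlapped void.

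Against wild-type p65, the non-cleavable D361E form differed in 5 members, 4 higher and 1 lower (2.42% and 1.79% of all genes). Col4a1 was at least 7.34-fold lower with D361E than with WT (adjusted p = 1.12e-12). The smallest Col4a1 difference in any refit was -1.15, still called, so this bound holds for the processed signals only. Fkbp10 rose by at least 1.77-fold over WT (adjusted p = 0.00444; 0.25 and not called with normexp), and Col5a1 was higher (0.76 ± 0.11, adjusted p = 0.000607). The Col11a2 rise (1.10 ± 0.25, adjusted p = 0.018) was lost without any 1 of the 6 arrays (1.06 to 1.13) and that of Col16a1 (0.67 ± 0.16, adjusted p = 0.0244) without any of 5, all but D361E 1 (0.61 to 0.68). Over all 18 refits Col11a2 ran from 0.66 to 1.23 with 7 losses, and Col16a1 from 0.42 to 0.77 with 10. Lamb1 did not differ by the test (-0.20 ± 0.49, adjusted p = 0.877).

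The N-fragment differed from WT in 16 members, 11 higher and 5 lower (13.8% and 13.5% of all genes). Fkbp10 was at least 35.3-fold higher (adjusted p = 2.31e-09). Col7a1 (4.13 ± 0.23, adjusted p = 2.05e-09), Col1a1 (4.01 ± 0.78, adjusted p = 0.00104) and Lamb1 (3.21 ± 0.49, adjusted p = 0.000129) were higher too. Col5a1 was higher (1.64 ± 0.11, adjusted p = 2.14e-08). Col1a2 was higher (1.33 ± 0.37, adjusted p = 0.0141), and without N-fragment 1 the difference was 1.23 and not called. Fbln1 (-1.61 ± 0.16, adjusted p = 2.85e-06) and Col11a2 (-1.22 ± 0.25, adjusted p = 0.00154) were lower.

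The C-fragment differed from WT in 7 members, 2 higher and 5 lower (2.09% and 2.35% of all genes), and in 13 without the N+C arrays (4 higher and 9 lower, with 4.44% and 4.87% of all genes). Col4a1 was lower (-1.17 ± 0.13, adjusted p = 4.86e-05), and Fkbp10 was higher by 2.01-fold or more (adjusted p = 0.0028; 0.30 and not called with normexp). Plod2 (-0.56) and P4ha1 (-0.54) were lower too, neither called with the array median as scale (-0.50 and -0.48). Col11a2 was lower (-1.01 ± 0.25, adjusted p = 0.0295), lost without any WT array, C-fragment 1 or C-fragment 2 (-1.05 to -0.92). The calls of Col16a1 (-0.61; -0.65 to -0.58) and Nid1 (0.32; 0.29 to 0.35) were lost without any 1 of the 6 arrays. Over all 18 refits Col11a2 ran from -1.17 to -0.37, and 6 lost the call. Col16a1 ran from -0.78 to -0.47 with 9 losses, and Nid1 from 0.16 to 0.39 with 10.

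N+C differed from WT in 16 members, 12 higher and 4 lower (13.6% and 9.67% of all genes). Col7a1 (2.64 ± 0.21, adjusted p = 2.1e-07), Col5a1 (1.34 ± 0.10, adjusted p = 1.27e-07), Col5a3 (1.31 ± 0.14, adjusted p = 6.41e-06) and Col4a1 (1.24 ± 0.11, adjusted p = 1.1e-06) were higher by over 2-fold. Col1a2 was lower (-2.16 ± 0.33, adjusted p = 0.000208). Lamb1 was lower (-1.49 ± 0.44, adjusted p = 0.0226), which was lost without any WT array or N+C 1 (-1.52 to -1.35) and was -0.23 over N+C arrays 4 and 5 alone. The smaller rises of Col4a2 (0.81; 0.78 to 0.87 without any WT array) and Hspg2 (0.77; 0.69 to 0.75 without WT 1 or WT 2) were lost in the same way.

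The N-fragment and the C-fragment were also set against each other, and 17 members differed, 15 higher with the N-fragment and 2 lower (9.99% and 10.2% of all genes). Lamb1 (4.33 ± 0.49, adjusted p = 8.87e-06), Fkbp10 (4.13 ± 0.35, adjusted p = 3.32e-07), Col1a1 (4.11 ± 0.78, adjusted p = 0.00119) and Col7a1 (3.57 ± 0.23, adjusted p = 1.4e-08) were higher with the N-fragment. Col1a2 (2.03 ± 0.37, adjusted p = 0.000928), Col5a1 (1.31 ± 0.11, adjusted p = 3.68e-07) and Col16a1 (1.03 ± 0.16, adjusted p = 0.000185) followed. Fbln1 (-1.26 ± 0.16, adjusted p = 4.39e-05) and P4ha1 (-0.45 ± 0.10, adjusted p = 0.00455) were lower with the N-fragment, and P4ha1 was not called on unscaled signals (-0.36). Of the other 8, all higher by under 2-fold, 4 lost the call when single arrays were left out. These were Hspg2 without C-fragment 2, C-fragment 3 or N-fragment 1 (0.65 to 0.79) and Plod3 without any of the same arrays (0.32 to 0.40). Col5a3 lost it without any C-fragment array or N-fragment 1 (0.45 to 0.54), and Lamb2 without any C-fragment array, N-fragment 1 or N-fragment 2 (0.40 to 0.58). Within single slides that held both groups, all 206 differences available for 109 of the 110 calls of members in the 10 comparisons had the sign of the pooled value. These differences come from the arrays that gave the calls and were taken for called members only. The shared sign is therefore no separate support, and a part of the slides was not tested by it.

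The plot of the 5 N+C arrays against the void mean shows which members split. Over arrays 1 to 3 alone 17 members were called against void, 9 higher and 8 lower (15.6% and 18.1% of all genes). Over arrays 4 and 5 alone 18 were called, 14 higher and 4 lower (14.0% and 14.3%), the spread being taken from the other groups as well. Col1a1 and Col4a4 were called lower in the first set and higher in the second, though Col1a1 was above background on only 1 of the first 3 arrays. Lamb1 and Lama5 were called higher over arrays 4 and 5 only (1.47 for Lama5, against 0.00 over arrays 1 to 3), and P4ha2 lower over arrays 1 to 3 only (-1.81, and 0.16 over arrays 4 and 5). Col7a1, Col4a1, Col4a5, Col5a3, Lamc1 and Sparc were called higher and Col1a2, Col11a2, Plod2 and Fkbp10 lower in both sets.

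**Figure D5:**
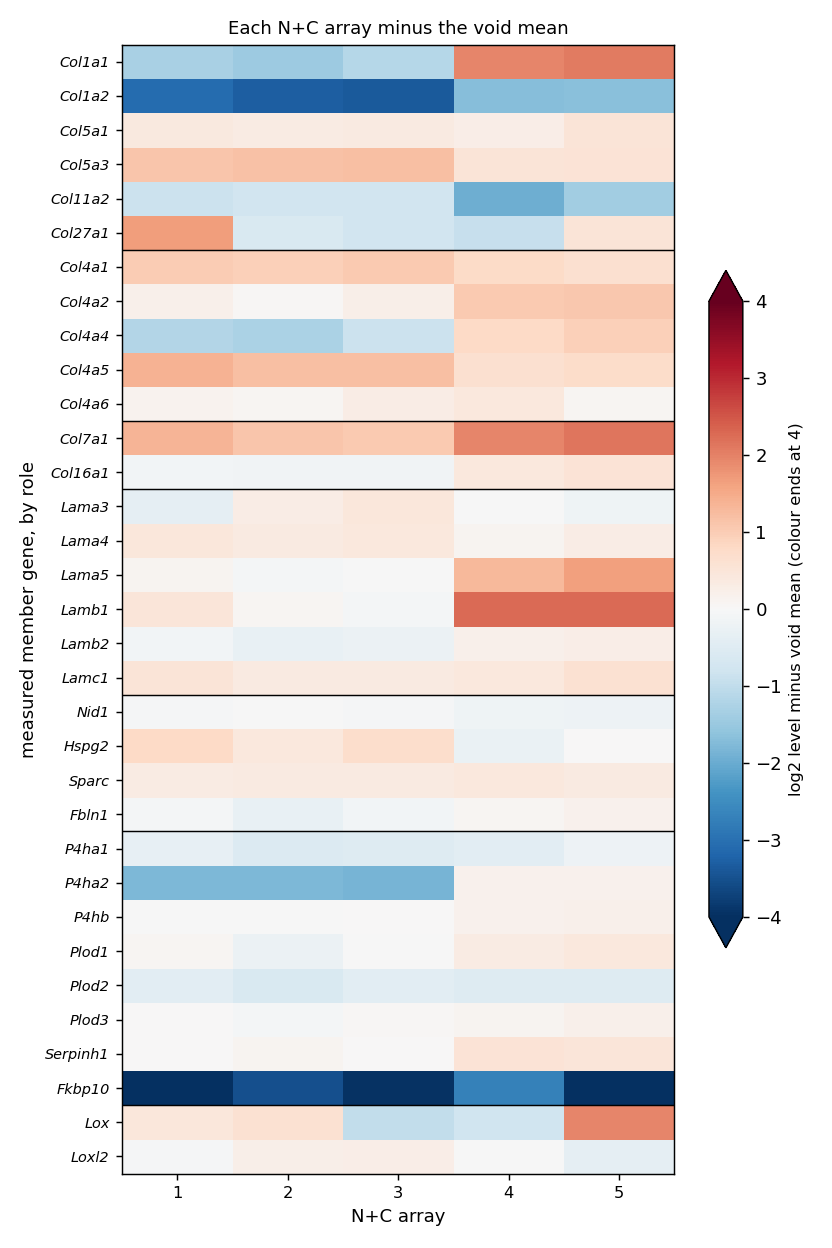
Level of each measured member on each of the 5 N+C arrays minus its void mean (log2, red above and blue below void, colour ends at 4), with rows grouped by role. Columns 1 to 3 and columns 4 and 5 differ in colour for Col1a1, Col4a4, Lama5, Lamb1 and P4ha2.

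A list of 93 further genes of matrix assembly was set beside the members, of which 58 were measured. With the N-fragment 19 were higher and 7 lower than with void (13.2% and 17.9% of all genes), and with N+C 14 and 7 (11.8% and 12.8%). With D361E 8 and 7 were called (6.04% and 7.44%), with the C-fragment 2 and 10 (4.88% and 8.25%) and with WT 4 and 7 (3.22% and 6.16%). Of 10 measured other matrix proteins, 5 were higher with the N-fragment and 1 was lower. Among them Fn1, fibronectin, was higher with the N-fragment (2.95 ± 0.43, adjusted p = 7.21e-05) and N+C (1.86 ± 0.38, adjusted p = 0.00211), and Postn, periostin, with the N-fragment (1.38 ± 0.19, adjusted p = 3.53e-05). The smallest N-fragment difference of Postn in any refit was 0.49, still called. The N+C difference of Fn1 was 2.60 over arrays 1 to 3 and 0.75 over arrays 4 and 5, both called, and with only these groups fitted it was not called (adjusted p = 0.0734). Postn was lower by 1.97-fold or more with WT, 2.08-fold with D361E and 1.64-fold with the C-fragment (adjusted p = 0.00302, 0.000227 and 0.00131). With normexp the last 2 were not called (-0.16 and -0.15), and on unscaled signals that of WT was not (-0.61). Thbs2, thrombospondin-2, was lower with N+C (-1.97 ± 0.61, adjusted p = 0.0272), though -0.35 and not called over arrays 4 and 5. Of all 20 refits 8 lost this call, and 2 of the 5 N+C arrays were above background.

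Among 10 measured proteases and inhibitors, 4 were higher and 1 lower with the N-fragment (13.2% and 17.9% of all genes). With D361E 1 was higher and 4 were lower (6.04% and 7.44%). Timp1, an inhibitor of matrix metalloproteinases, was lower with D361E (-1.77 ± 0.15, adjusted p = 1.01e-06) and N+C (-1.36 ± 0.13, adjusted p = 2.81e-06). Its relative Timp3 was higher with the N-fragment (2.12 ± 0.30, adjusted p = 5.58e-05) and lower with the C-fragment (-1.36 ± 0.30, adjusted p = 0.00735) and N+C (-1.16 ± 0.27, adjusted p = 0.00503). The last was -1.67 over arrays 1 to 3 and -0.38 over arrays 4 and 5, and was not called with only these groups fitted (adjusted p = 0.101).

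Of 27 measured other collagens, laminins and processing genes, 5 were higher and 4 lower with the N-fragment (13.2% and 17.9% of all genes). Adamts14, which trims procollagen ends, was higher with the N-fragment (1.41 ± 0.17, adjusted p = 9.04e-06) and lower with D361E (-2.40 ± 0.17, adjusted p = 1.04e-07) and WT (-1.37 ± 0.17, adjusted p = 7.66e-05). Col2a1, the cartilage collagen, was at least 1.29-fold lower with the C-fragment (adjusted p = 0.00349; -0.27 and not called with normexp), where no array was above background. Of 11 measured receptors of collagen and laminin, 5 were higher and 1 lower with the N-fragment (13.2% and 17.9% of all genes). Among the higher were the laminin receptor subunit Itga6 (0.68 ± 0.13, adjusted p = 0.000747), the collagen receptor Ddr1 (0.72 ± 0.07, adjusted p = 5.44e-07) and the laminin-binding Bcam (2.51 ± 0.70, adjusted p = 0.0117; 2.16 and not called without void 1). The smallest Bcam difference in any refit was 0.91, and only 2 void arrays were above background.

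The 14 members without a usable signal were Col3a1, Col5a2 and Col11a1 among the fibrillar collagens, Col4a3, and Col6a1, Col6a2, Col6a3, Col9a3, Col12a1 and Col18a1 among the other collagens, with Lama1, Lamb3, Nid2 and Loxl1. None had a probe above background on more than 2 of the 20 arrays. Their probes bound the signal only and do not show that the genes were silent. Of the 33 measured members 10 were called in none of the 10 comparisons, namely Col27a1, Col4a4, Col4a6, Lama3, Lama5, Lox, Loxl2, P4ha2, Plod1 and Serpinh1. The share of all genes called in none was not counted.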

How the data were processed

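Per the file headers, the authors scanned 20 one-colour Agilent arrays on 5 slides of 4, and the deposited intensity values are the background-subtracted processed signals of Feature Extraction 10.7.3.1. The deposited series table equals them on all 44397 features. No scaling between arrays is thus in them. Here, spot signals were put on the log2 scale, outlier spots were left out, and the spots of each probe were averaged. The values were then centred on the array's 75th percentile, which differed up to 1.448-fold between arrays. Deposited intensities became log2 values only in these steps. Accessions were looked up in a RefSeq gene table for names (28663 of 39429 probes, 72.7%), and 51.1 to 57.9% of spots per array were well above background. A probe had to be above background on 3 or more arrays, and the brightest stood for its gene. Lamb1, Col1a1, Col1a2, Col7a1, Col4a1, Col4a2 and Fkbp10 had 1 probe each, so no second probe could be set beside their values. limma 3.58.1 in R 4.3.3 fitted 6 group means to 18738 genes (residual df 14), with Benjamini-Hochberg adjustment within each of 10 comparisons. Beside groups not above background, folds are bounds. The fit was tested on simulated data.

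All members are accounted for. Values on every array are given for up to 3 measured members per role with the widest range of group means, differences mainly for members called at 2-fold or more, and up to 3 called genes for each of 4 lists of neighbouring genes. Members and lists were chosen with earlier results of these data known, and some genes were named after their values were seen. Alternatives covered scaling, background correction, filters, probe choice, arrays in the fit, slide and left-out arrays. The planned normexp correction used median signals, since the files at hand have no mean signal column. The precision is limited by the number of arrays.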

Additional observations from a re-analysis of the deposited data

How the results depend on the processing

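No called difference of a member or named neighbouring gene changed direction under any alternative tried. Of 51 calls of members at 2-fold or more, 42 held under every alternative, as did 21 of 59 smaller calls, and 41 of 933 and 147 of 1111 refits lost the call. Where the text names arrays whose removal lost a call, further refits could lose it too and widen the range. The counts of members called moved more. Leaving out 1 array gave 5 to 5 for WT against void (6 with all arrays), 4 to 6 for D361E (8), 12 to 14 for the N-fragment (14), 7 to 9 for the C-fragment (8) and 12 to 14 for N+C (13). Against WT it gave 3 to 4 for D361E (5), 15 to 18 for the N-fragment (16), 4 to 5 for the C-fragment (7) and 13 to 18 for N+C (16), and for the N-fragment against the C-fragment 13 to 18 (17). For WT against void, unscaled signals gave 12. For D361E against void they gave 5, the array median as scale gave 4 (3 higher, 1 lower), and probes above background on all arrays gave 5. The C-fragment against void had 5 with the array median as scale and 13 when only these 2 groups, or all but the N+C arrays, were fitted. D361E against WT had 3 with probes above background on all arrays and 8 with slide as a random block. Without the N+C arrays it had 10, 6 higher and 4 lower (5.01% and 3.54% of all genes). The C-fragment against WT had 4 with normexp, 3 with the array median, 4 without a filter, 14 with only these groups fitted, 11 with slide as a fixed block and 13 without the N+C arrays. N+C against WT had 10 with only these groups fitted. The share of all genes called also moved with the setting. In this text it is given only for unscaled signals and for refits by N+C arrays. The other counts cannot be read as moves of the members alone. The causes were not tested.

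Splits of higher and lower calls also moved with scaling. Shares of all genes are not given here for quantile normalization, normexp or the array median. Splits under these settings cannot be read as moves of the members alone. D361E against void had 2 and 6, but 3 and 3 with quantile normalization and 3 and 4 with normexp. With normexp the C-fragment had 1 and 7 against void (0 and 8) and 0 and 4 against WT (2 and 5). Against WT, unscaled signals gave 2 and 4 for D361E (4 and 1), 1 and 7 for the C-fragment and 8 and 6 for N+C (12 and 4). Of all genes, these signals gave 0.694% higher and 6.80% lower with D361E, 0.395% and 4.62% with the C-fragment and 4.58% and 16.8% with N+C. With the array median as scale, where the median difference of all genes was 0.13 to 0.18 in these, the N-fragment had 12 and 4 against void (9 and 5), N+C 8 and 3 against void (8 and 5) and 12 and 2 against WT. Refits of the N+C sets and without N+C arrays were chosen after the data were seen. Replicates could not be paired between groups by label, because no label numbers them within a group. The slides that groups share were fitted as a block instead. Signals near background limit Col27a1, Col4a1, Col4a2, Fkbp10 and Lox, where normexp shrank differences, for example Fkbp10 with D361E against WT to 0.25, not called. For further differences of members from void, all still called, normexp changed the fold itself, not its log2, by a factor over 1.5. With their log2 values under normexp, these were Col11a2 with the N-fragment, the C-fragment and N+C (-0.53, -0.49 and -0.46) and Col4a1 with the C-fragment (-0.63). Lamb1 with WT and D361E (1.44 and 1.31) and Col1a2 with N+C (-1.85) were the others.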
